A study of Homo sapiens with 12 samples.

Results

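The comparison set K-562 cells kept for 48 h in 5 µM Si-711 against K-562 cells kept for 8 h in the same dose, a late against an early exposure to an agent named in the series as an inhibitor of SIRT1 and SIRT2. K-562 cells, a long-established line from a patient with chronic myeloid leukemia, hold the BCR-ABL1 fusion gene and produce embryonic and fetal globins; they were in exponential growth in RPMI1640 with heat-inactivated serum. Polyadenylated RNA was sequenced in strand-specific libraries, with 3 biological replicates at 48 h and 3 at 8 h, so 6 of the 12 libraries of the series entered the comparison and the untreated and 24 h libraries did not. Genes with a normalized count of at least 10 in at least 3 of these 6 libraries were compared, which gave 14424 of the 51112 genes listed. Both groups carried the drug at the same dose, so the 48 h and 8 h libraries differed in length of exposure and in time in culture, and the effects of these cannot be told apart without drug-free cultures of the same age.

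Sirtuins 1 and 2 are deacetylases that use NAD to remove acetyl groups from histones, transcription factors and tubulin. Ribosomal protein mRNAs make up a large part of the mRNA of a growing cell, and many of them begin with a C followed by a run of pyrimidines, a 5′ terminal oligopyrimidine tract through which the mTOR pathway controls their translation. The nucleolar factors that assemble ribosomes are, by contrast, classic targets of the transcription factor MYC, which binds the sequence CACGTG and drives growth in leukemia cells.

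Normalized counts added up to between 34614827 and 37117837 per library at 48 h, against between 27217438 and 28940867 at 8 h. The step that best divided the low values into whole numbers would put the depth at an estimated 25921370 to 35357331 reads over the 6 libraries, but it made only part of those values whole. Pearson's r of the log2 values across genes was 0.966 to 0.977 within the groups and 0.890 to 0.901 between them. Between 13755 and 13938 genes per library reached 10 at 48 h, against between 14238 and 14630 at 8 h. All 10 marker genes of K-562 cells that were checked, among them ABL1, GATA1 and HBZ, reached 10 in each of the 6 libraries. Since the libraries at 48 h held larger totals, each count over a whole list below is also given with the totals made equal. Quantile normalization is added where it moved the share of rises among the called members by over 10 percentage points. Counts of genes that hold a motif or a pyrimidine start are given as deposited only.

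Late exposure differed from early exposure in most of the measured transcriptome. Of the 14424 genes tested with limma on log2(normalized count + 1), 8950 passed an adjusted p of 0.05 (Benjamini-Hochberg), or 62.0%. At 48 h 4433 genes were higher than at 8 h (30.7%) and 4517 were lower (31.3%). A change of at least 2-fold was reached by 1951 genes that rose (13.5%) and 2651 that fell (18.4%). All 3 libraries at 48 h lay above all 3 at 8 h for 4864 genes (33.7%) and below them for 4949 (34.3%). With equal totals the median log2 fold change of all genes moved to -0.37, against -0.02 as deposited, and the split became 2756 higher and 6265 lower. These shares are the background for the counts of list members that follow.

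**Figure D1:**
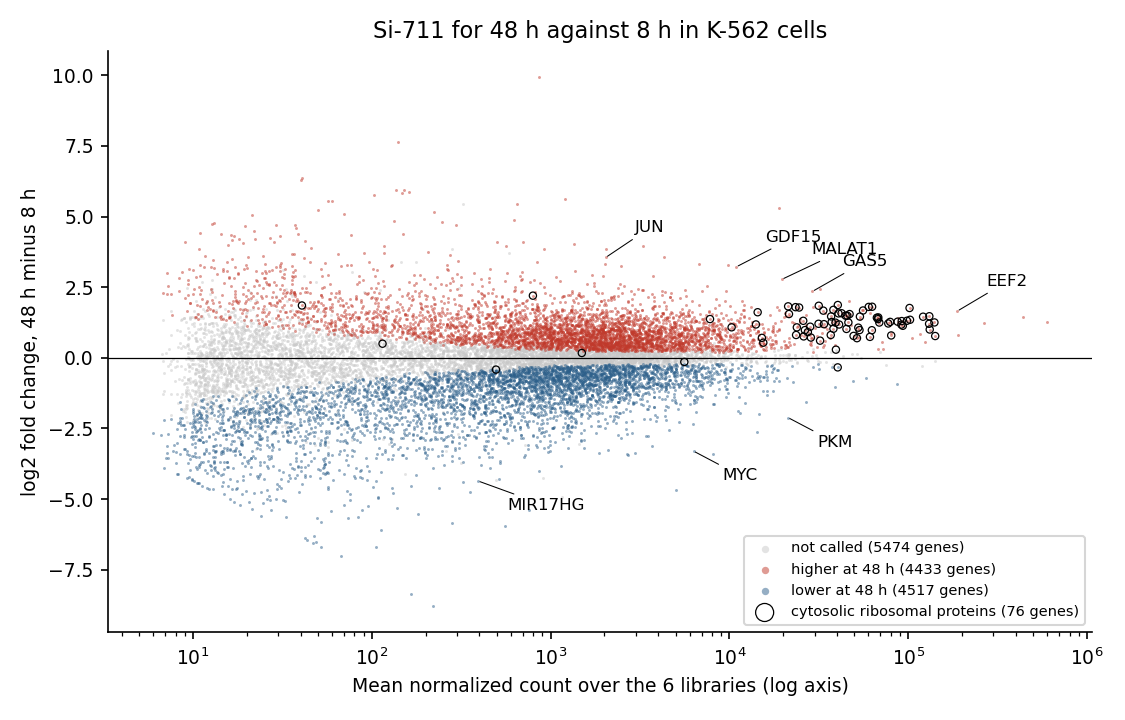
Mean normalized count over the 6 libraries (log axis) against the log2 fold change, 48 h minus 8 h, for 14424 genes. Points are coloured by call (4433 higher and 4517 lower at 48 h) and black circles mark 76 cytosolic ribosomal protein genes, nearly all of which lie above 0 at the right end of the axis.

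The first letters of several transcripts are shown because most ribosomal protein genes, which rose at 48 h, begin with a pyrimidine tract. The other genes shown with a tract were picked because they carry one, and most translation factors and snoRNA host genes with a known start do not. Each line gives 20 bases before and 20 bases from the RefSeq start of transcription (GRCh38.p14), 5′ to 3′ on the strand of the gene, with the pyrimidine tract at the start in capitals.
RPS24 (chr10:78033843-78033882, plus strand): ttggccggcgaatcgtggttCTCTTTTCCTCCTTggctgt
RPL12 (chr9:127451387-127451426, minus strand): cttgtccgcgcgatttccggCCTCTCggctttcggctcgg
RPS6 (chr9:19380217-19380256, minus strand): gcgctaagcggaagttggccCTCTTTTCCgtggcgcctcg
EEF2 (chr19:3985444-3985483, minus strand): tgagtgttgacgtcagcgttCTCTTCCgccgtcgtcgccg
TPT1 (chr13:45341164-45341203, minus strand): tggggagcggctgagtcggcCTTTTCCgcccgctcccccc
ZFAS1 (chr20:49278622-49278661, plus strand): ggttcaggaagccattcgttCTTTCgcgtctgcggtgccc
SNHG5 (chr6:85678714-85678753, minus strand): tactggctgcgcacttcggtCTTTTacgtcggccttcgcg
In the starts of UTP20 and UTP4, nucleolar genes that fell, the capitals mark CACGTG.
UTP20 (chr12:101280085-101280124, plus strand): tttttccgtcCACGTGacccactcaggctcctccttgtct
UTP4 (chr16:69132629-69132668, plus strand): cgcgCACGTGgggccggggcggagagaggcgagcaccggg

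Ribosomal protein genes rose as a group. Of 76 cytosolic ribosomal protein genes tested, 70 rose and 2 fell, with a median log2 fold change of 1.25 beside -0.02 for all genes. With equal totals 68 rose and 3 fell and the median was 0.89, and under quantile normalization 61 rose and 3 fell and the median was 0.52. RPS24, a protein of the small subunit, had 32968, 32479 and 34282 normalized counts at 48 h, against 9511, 10076 and 8627 at 8 h. RPL37, of the large subunit, had 63414, 55667 and 71206 at 48 h, against 16087, 21225 and 15040 at 8 h. Every library at 48 h lay above every library at 8 h for both genes, and the log2 fold changes were 1.82 for RPS24 (SE 0.08) and 1.87 for RPL37 (SE 0.14). The limma adjusted p was 9.98e-07 for RPS24 and 7.42e-06 for RPL37. RPS27 showed the largest change of the list at 2.20, with only 1132 to 1492 at 48 h, against 251 to 312 at 8 h, and RPL36A changed by 1.84. RPL12 and RPS6, whose starts are shown above, rose by 1.81 and 1.43. Near-identical ribosomal protein pseudogenes can share reads with these genes, so single values are less certain than the shift of the list.

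The ribosomal protein genes together took 14.7 ± 0.882% of the library total at 48 h and 8.09 ± 0.337% at 8 h (SD, n = 3 each), a difference of 6.58 percentage points. The single libraries held 15.5, 13.7 and 14.8% at 48 h, against 8.47, 7.83 and 7.97% at 8 h. The groups did not overlap, and the exact two-sided permutation p was 0.1, the smallest that 3 against 3 libraries allow. Because RNA was measured in bulk, more RNA of these genes per cell and more cells that express them cannot be told apart.

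**Figure D2:**
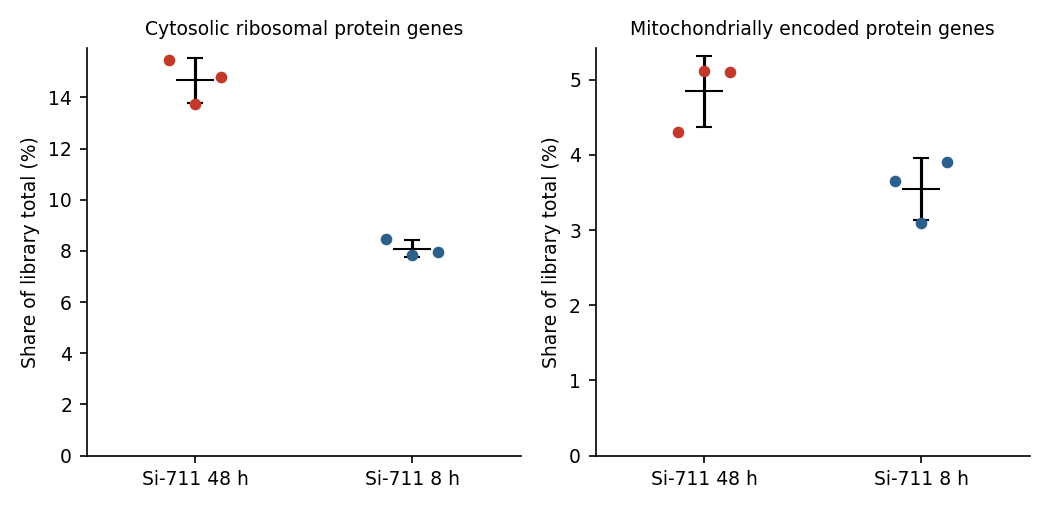
Share of each library total (%) taken by cytosolic ribosomal protein genes (left) and mitochondrially encoded protein genes (right) at 48 h and 8 h, with 3 libraries each as points and mean ± SD. The ribosomal shares are 13.7 to 15.5% at 48 h and 7.83 to 8.47% at 8 h, and the mitochondrial ones 4.30 to 5.12% and 3.10 to 3.90%.

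A pyrimidine start, defined as a C at the first transcribed base followed by at least 4 further C or T, was present at one of the RefSeq starts of 44 of 60 ribosomal protein genes with a start window (73.3%), beside 772 of all 10485 tested genes matched by symbol (7.36%). The definition was chosen after the changes were known. Outside the ribosomal proteins, 728 genes had such a start, and their median log2 fold change was 0.23, beside -0.02 for the genes without one. Of these 728 genes 42.9% rose and 22.1% fell, beside 31.1% and 32.2% of the genes without the tract. These shares are as deposited, and the 2 sets were not matched for level or transcript length. In the fifth of protein-coding genes with the highest mean normalized count 50.7% rose and 23.9% fell, and the part of level here was not tested. The match describes the annotated start, and the start used in these cells was not measured.

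Translation factors moved in both directions. Of 40 initiation and elongation factors, 23 rose and 12 fell, with a median of 0.50, while equal totals and quantile normalization each gave 18 rises and 17 falls. The elongation factor EEF2, which moves the ribosome along the mRNA, had 265970, 237218 and 357913 normalized counts at 48 h, against 95881, 81424 and 92456 at 8 h. All libraries at 48 h were higher, by a log2 fold change of 1.66 (SE 0.16, limma adjusted p 2.82e-05). EIF3E, a subunit of the initiation complex eIF3, rose by 2.01, and EEF1D, an exchange factor of elongation factor 1, by 1.63. EEF2K, the kinase that inhibits EEF2, changed by 1.83 but was no longer called with equal totals or without replicate 2 or 3 of 48 h. EIF4E, which binds the cap, fell by 0.64, whereas its inhibitor EIF4EBP1 rose by 1.17. Of the 9 factors with a pyrimidine start among 31 with a window, 8 rose and none fell. TPT1, a member of the list that encodes a growth-related protein, had 77482, 76955 and 78217 at 48 h, against 29660, 33984 and 27393 at 8 h.

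Small nucleolar RNA host genes are noncoding transcripts that carry snoRNAs in their introns. Of 16 tested, 12 rose and 2 fell, with a median log2 fold change of 1.05, and with equal totals 11 rose and 2 fell. GAS5 had 48387, 45104 and 52909 normalized counts at 48 h, against 10330, 8660 and 9682 at 8 h, and ZFAS1 had 8968, 7676 and 9105, against 1978, 2121 and 1867. Both were higher in every library at 48 h, by 2.35 (SE 0.10) for GAS5 and 2.11 (SE 0.10) for ZFAS1. EPB41L4A-AS1 rose by 2.73, SNHG6 by 2.08 and SNHG5 by 1.53. ZFAS1 is annotated as an antisense gene, and because no source used here gives the strand setting of the counting, its reads and those of its partner cannot be told apart.

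Nucleolar genes went the other way. Of 38 ribosome biogenesis genes 26 fell and 3 rose, with a median of -0.63, and with equal totals 33 fell and 2 rose. UTP20, a component of the small-subunit processome, had 826, 670 and 809 normalized counts at 48 h, against 2844, 2204 and 2766 at 8 h. UTP4, of the same complex, had 2191, 1488 and 1594 at 48 h, against 6053, 5386 and 5998 at 8 h. The groups did not overlap for either gene, and the log2 fold changes were -1.76 for UTP20 (SE 0.13) and -1.74 for UTP4 (SE 0.14). RRP1B fell by 1.58, UBTF, the RNA polymerase I factor, by 1.35, and NOP56, a core protein of snoRNPs, by 0.82. CACGTG, which reads the same on both strands, lay in the 300-base window from 250 bases before to 50 after the start of 14 of 34 nucleolar genes with a window (41.2%), beside 12.4% of all tested genes. Among the nucleolar genes the median was -0.56 with the motif and -0.60 without it, values that lie close together.

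MYC itself fell. It had 943, 1303 and 1203 normalized counts at 48 h, against 13724, 8451 and 12214 at 8 h, so that each library at 48 h held fewer than any at 8 h. The log2 fold change was -3.30 (SE 0.18, limma adjusted p 1.89e-06). Of 12 genes of the MYC, MAX and MXD network 7 rose and 4 fell, with a median of 0.64, against 5 and 5 with equal totals. MXD1, which competes with MYC for the partner MAX, had 3633, 3452 and 3578 at 48 h, against 888, 824 and 748 at 8 h, a change of 2.12. The glucose-sensing relatives MLXIPL and MLXIP rose by 2.79 and 1.82, and the repressor MXI1 by 1.00. MNT, another repressor, fell by 1.20, and MAX had 2074 to 2441 at 48 h and 2300 to 2912 at 8 h without passing the test.

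The microRNAs encoded in MIR17HG, a host transcript that MYC is known to activate, are shown by sequence because their host fell. Whether the fall of the host was linked to that of MYC was not tested. The host is on the plus strand of chromosome 13, and each mature microRNA below lies within it on the same strand. Capitals mark the seed, bases 2 to 8, and the microRNAs are grouped by it.
hsa-miR-17-5p: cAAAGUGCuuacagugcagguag
hsa-miR-20a-5p: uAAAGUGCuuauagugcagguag
hsa-miR-18a-5p: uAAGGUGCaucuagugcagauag
hsa-miR-19a-3p: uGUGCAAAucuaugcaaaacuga
hsa-miR-19b-3p: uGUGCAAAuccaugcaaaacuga
hsa-miR-92a-3p: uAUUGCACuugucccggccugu
Other hosts that fell carry let-7i on chromosome 12 and miR-142 on chromosome 17, both RefSeq sequences like those above.
hsa-let-7i-5p: uGAGGUAGuaguuugugcuguu
hsa-miR-142-3p: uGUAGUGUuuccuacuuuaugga

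MIR17HG had 52.0, 20.7 and 41.0 normalized counts at 48 h, against 764, 664 and 818 at 8 h, a log2 fold change of -4.36 (SE 0.33, limma adjusted p 7.03e-06). MIRLET7IHG had 2.15, 1.97 and 8.55 at 48 h, against 76.6, 114 and 136 at 8 h, and MIR142HG had 33.1, 25.4 and 69.5, against 458, 674 and 418. No library overlapped between the groups for these 3 hosts. MIR4453HG fell by 2.90, whereas MIR4435-2HG rose by 1.78 with 4316, 3195 and 4172 at 48 h, against 1266, 1080 and 1047 at 8 h. Of 24 microRNA host genes tested 9 fell and 3 rose, against 10 and 2 with equal totals and 9 and 5 under quantile normalization, and this group was chosen after its values were seen. Over all tested genes 31.3% fell and 30.7% rose. Many of these hosts are annotated as lincRNA genes, a type of which 37.7% fell and 13.5% rose. A difference between the hosts and other noncoding genes was not tested. Mature microRNAs are not polyadenylated and were not measured.

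**Figure D3:**
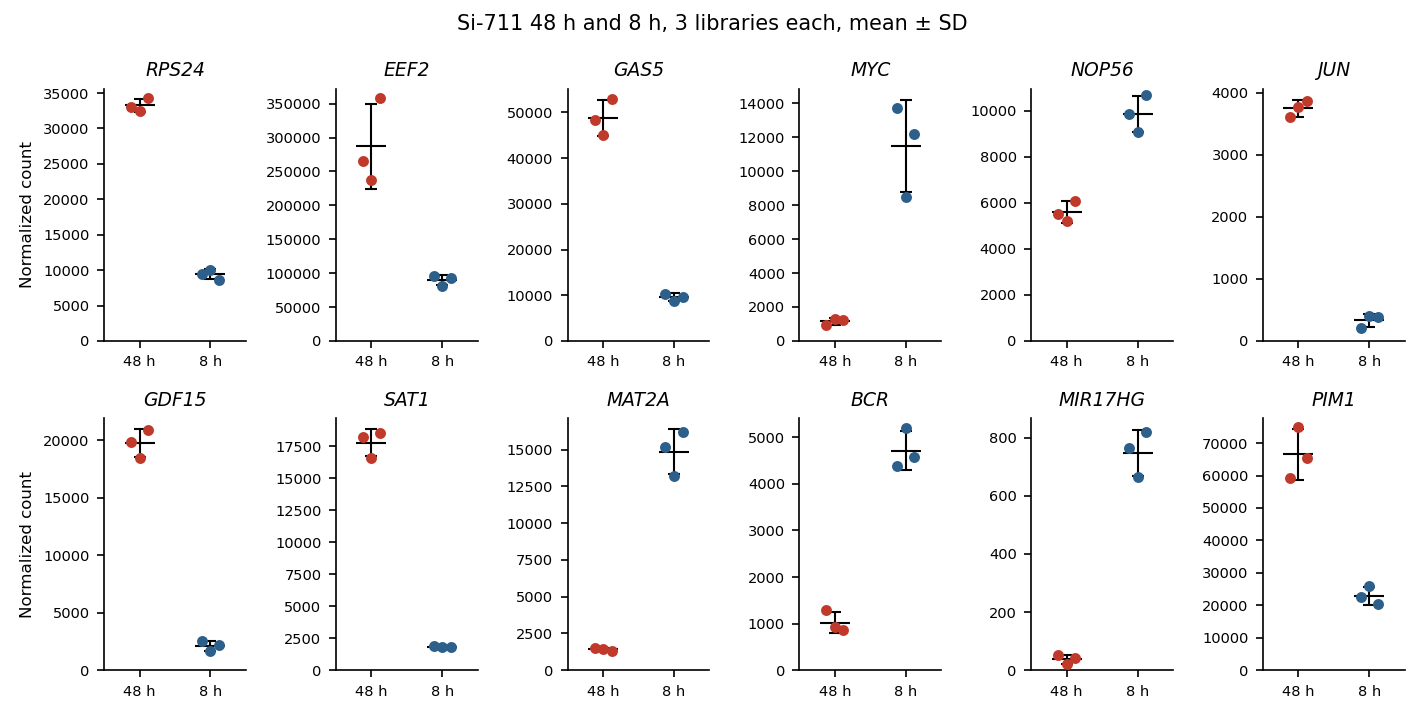
Normalized counts of 12 genes in the 3 libraries at 48 h (left of each panel) and the 3 at 8 h (right), as points with mean ± SD on axes that start at 0. The groups do not overlap in any panel, with RPS24, EEF2, GAS5, JUN, GDF15, SAT1 and PIM1 higher and MYC, NOP56, MAT2A, BCR and MIR17HG lower at 48 h.

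Immediate-early and ERK feedback genes, which are switched on within minutes of growth factor signalling, moved in both directions, with more falls than rises. Of 26 tested, 10 fell and 4 rose, with a median of -0.96, and with equal totals 15 fell and 2 rose. JUN had 3602, 3771 and 3859 normalized counts at 48 h, against 207, 407 and 379 at 8 h, an 11.3-fold higher mean (log2 fold change 3.56, SE 0.23, limma adjusted p 3.22e-06). EGR1 had 384, 257 and 559 at 48 h, against 3291, 1603 and 2731 at 8 h, and FOSL1, a partner of JUN in AP-1, had 55.9, 91.0 and 68.9, against 508, 508 and 484. Both lay below all libraries at 8 h, with changes of -2.67 and -2.81. JUNB fell by 1.55 and FOS by 1.33, and DUSP1, a phosphatase that turns off MAP kinases, rose by 1.64.

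The BCR-ABL1 kinase drives STAT5 in these cells. Of 23 genes of the BCR, ABL1 and STAT5 axis 11 fell and 8 rose, with a median of -0.56, against 15 falls and 7 rises with equal totals. BCR, whose promoter drives the fusion gene, had 1285, 916 and 868 normalized counts at 48 h, against 4373, 5188 and 4573 at 8 h (log2 fold change -2.22, SE 0.15). ABL1 fell by 0.99 with 5596 to 7468 at 48 h, against 12149 to 13064 at 8 h. The 3′ exons of ABL1 and the 5′ exons of BCR belong to both the normal genes and the fusion, and gene totals do not separate them. Among genes that STAT5 is known to activate, ID1 had 34.4, 34.7 and 23.9 at 48 h, against 412, 327 and 381 at 8 h, and SOCS3 fell by 2.88. The kinase gene PIM1 moved in the opposite direction, with 59094, 74915 and 65541 at 48 h, against 22690, 25832 and 20341 at 8 h, a change of 1.53 (SE 0.12). BCL2L1, which encodes the survival protein BCL-xL, fell by 0.98.

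Genes of DNA replication were lower more often than higher. Of 48 tested 23 fell and 7 rose (median -0.28), against 33 falls and 3 rises with equal totals. PCNA, the sliding clamp of DNA polymerase, had 1589, 2210 and 1926 normalized counts at 48 h, against 7133, 6284 and 7096 at 8 h. FEN1, which trims Okazaki fragments, had 1079, 1595 and 1310, against 5966, 5621 and 5915, and POLA1, the catalytic subunit of the priming polymerase, fell by 2.46. Every library at 48 h was below every library at 8 h for PCNA and FEN1, by 1.85 and 2.15. Of 41 mitosis genes 16 fell and 5 rose, against 31 and 2 with equal totals and 21 and 3 under quantile normalization, and their median of -0.08 became 0.04 under median centring. ESPL1, or separase, fell by 1.63, PLK1 by 1.37, AURKA by 1.27 and CCNB1 by 1.00, while CDK1 had 8725, 7988 and 9238 at 48 h, against 5958, 5632 and 5420 at 8 h, a rise of 0.61.

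Of 15 CDK inhibitor, D cyclin and related genes 5 rose and 5 fell, with a median of 0.03, and equal totals gave 3 rises and 7 falls. CCNG2, a cyclin tied to cell-cycle arrest, had 1892, 2086 and 1670 normalized counts at 48 h, against 421, 518 and 351 at 8 h (log2 fold change 2.14, SE 0.16). CCNG1 rose by 1.79, whereas CDK6 fell by 1.09 and the pocket protein gene RBL1 by 1.25. CDKN1B, which encodes the CDK inhibitor p27, was also lower, by 0.64. In the BCL2 family 5 of 16 rose and 5 fell, against 2 and 8 with equal totals. BCL2L11, which encodes the pro-apoptotic protein BIM, had 4150, 4248 and 5052 at 48 h, against 1147, 1170 and 1305 at 8 h, a change of 1.89. The pro-apoptotic gene BBC3 rose by 1.23 and the pro-survival gene MCL1 fell by 1.60, with 2158, 3004 and 2336 at 48 h, against 8031, 6982 and 7510 at 8 h. BAK1, a pore-forming member that promotes death, fell by 1.27.

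Targets of ATF4 and CHOP, the transcription factors of the integrated stress response, moved in both directions. Of 31 tested 13 rose and 10 fell, with a median of -0.10 that became 0.03 under median centring and 0.17 with the length and GC trend removed. Equal totals gave 10 rises and 16 falls, and quantile normalization 11 and 12. GDF15, a secreted stress cytokine, had 19836, 18469 and 20906 normalized counts at 48 h, against 2547, 1680 and 2201 at 8 h, 9.21-fold more on average (log2 fold change 3.22, SE 0.14, limma adjusted p 8.25e-07). PPP1R15A, which directs dephosphorylation of eIF2α, rose by 2.37, DDIT3, which encodes CHOP, by 1.07 and ATF4 by 0.72. TRIB3 fell by 1.42 and JDP2 by 2.25, and the proline enzyme gene PYCR1 changed by -1.92. ASNS, asparagine synthetase, had 19203, 14715 and 18088 at 48 h, against 6212, 5049 and 6332 at 8 h. Its start window holds the core of an amino acid response element, TGATGNAA on either strand, shown in capitals with 15 bases on each side and read on the gene's strand (GRCh38.p14).
ASNS (chr7:97872454-97872491, minus strand): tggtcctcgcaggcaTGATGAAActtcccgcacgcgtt
The motif was found in 2.58% of all windows and in 7 of 16 of the cytosolic aminoacyl-tRNA synthetase genes. Of those 7, 3 rose and 2 fell. Among the ATF4 and CHOP targets 6 of 25 with a window held it, of which 2 rose and 2 fell. Among amino acid transporters 5 of 17 held it, of which 1 rose and 4 fell.

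Cytosolic aminoacyl-tRNA synthetases, which load amino acids onto tRNAs, rose in 9 and fell in 4 of 20 genes, with a median of 0.17 that turned to -0.19 with equal totals and -0.04 under quantile normalization. Those settings gave 9 rises with 10 falls and 9 rises with 8 falls. VARS1 had 942, 773 and 585 normalized counts at 48 h, against 6825, 6199 and 6700 at 8 h, a log2 fold change of -3.12 (SE 0.16). FARSA fell by 1.21, while YARS1 rose by 1.29. Of 15 mitochondrial synthetases 6 fell and 5 rose, against 10 and 1 with equal totals, and PARS2 fell by 2.85 and MARS2 fell by 2.05, while AARS2 fell by 1.56 and LARS2 by 1.42. Among 18 amino acid transporters 8 fell and 2 rose (median -0.31), against 12 and 1 with equal totals. The leucine transporter is a pair of chains, and its genes diverged, since the light chain SLC7A5 had 5253, 6499 and 6464 at 48 h, against 18717, 16340 and 19760 at 8 h, whereas the heavy chain SLC3A2 had 32000, 27085 and 28123, against 8921, 8352 and 9357. Both differences had groups that did not overlap, with changes of -1.59 (SE 0.11) and 1.71 (SE 0.09). The glycine transporter SLC6A9 fell by 2.11 and the lysosomal SLC36A1 by 1.73.

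Genes around S-adenosylmethionine and the polyamines, small cations that growing cells make in bulk, shifted in opposite directions. MAT2A, which makes S-adenosylmethionine, had 1528, 1427 and 1282 normalized counts at 48 h, against 15214, 13177 and 16168 at 8 h, 10.5-fold less at 48 h (log2 fold change -3.39, SE 0.10, limma adjusted p 3.82e-07). AMD1, which turns it into the polyamine donor, had 716, 963 and 709 at 48 h, against 4900, 3829 and 4834 at 8 h, and ODC1, the first enzyme of polyamine synthesis, had 6907, 5408 and 6474, against 18213, 13004 and 17711. SAT1, which acetylates polyamines for breakdown and export, had 18232, 16614 and 18563 at 48 h, against 1907, 1825 and 1777 at 8 h. The 3 synthesis genes were lower and SAT1 higher in all libraries at 48 h, with changes of -2.51 for AMD1, -1.37 for ODC1 and 3.28 for SAT1. Over the list of 12 polyamine genes 4 rose and 5 fell, against 3 and 6 with equal totals and with quantile normalization alike. Of 20 serine and one-carbon folate genes 8 fell and 5 rose, against 12 and 4 with equal totals. MTHFD1 rose by 1.60 and MTRR, which reactivates methionine synthase, fell by 1.31. AMT, of the glycine cleavage system, had 49.6, 246 and 103 at 48 h, against 3.52, 9.97 and 26.1 at 8 h.

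**Figure D4:**
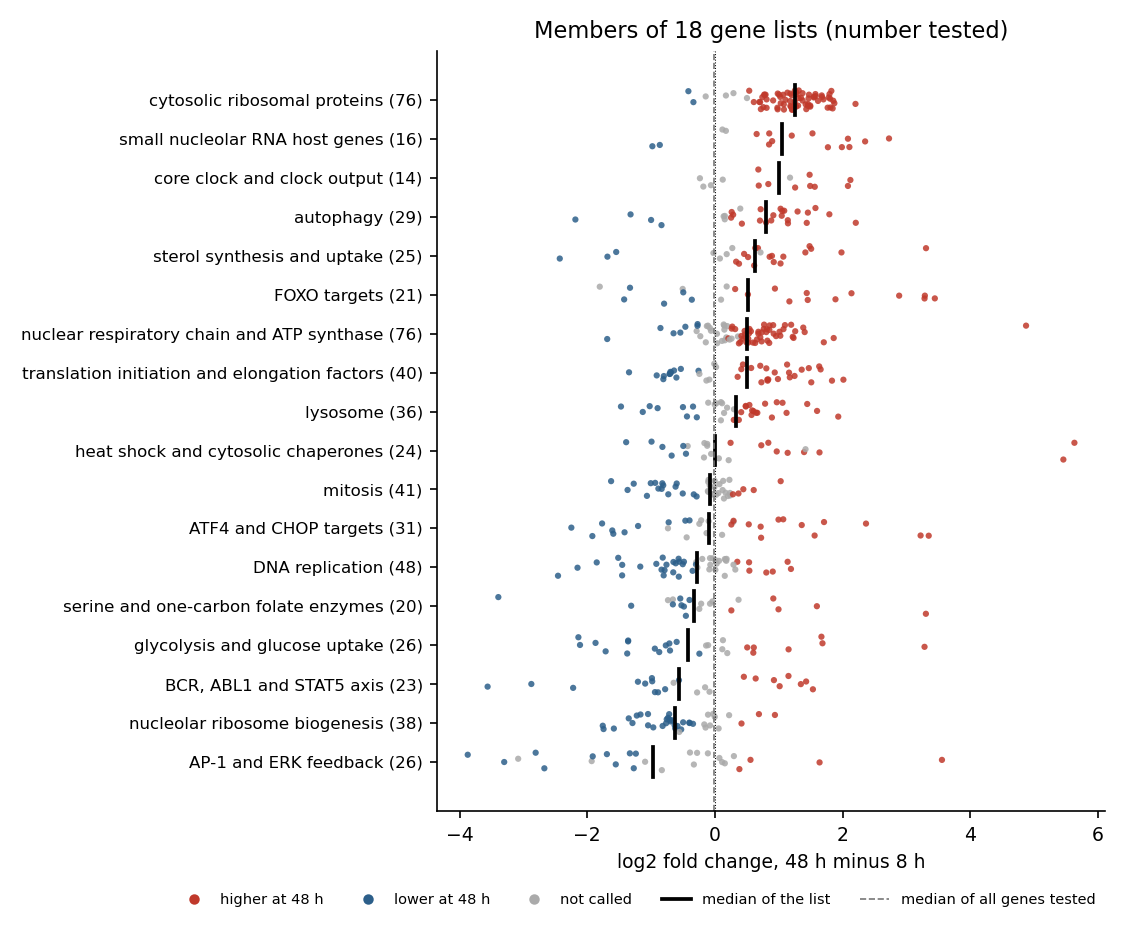
Log2 fold change, 48 h minus 8 h, of each tested member of 18 lists, coloured by call, with the list median as a black bar and the median of all genes as a dashed line. Medians run from 1.25 for cytosolic ribosomal proteins to -0.96 for AP-1 and ERK feedback genes.

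Several heat shock genes were far higher at 48 h and others were lower, and the median of the list was near 0. The inducible HSP70 genes HSPA1A and HSPA1B are near-identical and were summed, giving 3662, 3681 and 3443 normalized counts at 48 h, against 62, 163 and 77 at 8 h, a 35.8-fold higher mean. HSPA6, another inducible HSP70 gene, which was not in the list and was chosen after its values were seen, had 965, 1064 and 805 at 48 h, against 59.0, 51.7 and 50.1 at 8 h (log2 fold change 4.11, SE 0.20, limma adjusted p 1.11e-06). DNAJB1, an HSP70 cochaperone, had 11555, 12134 and 11049, against 3842, 3854 and 3467. None of these groups overlapped. DNAJB4 rose by 1.40. BAG3, a cochaperone gene, rose by 0.25, but its change was -0.11 with equal totals. Its call was also lost under quantile normalization, at a threshold of 0.01 and with most single libraries left out. DNAJA1, another HSP70 cochaperone, had 3835, 3372 and 3794 at 48 h, against 9533, 9543 and 9718 at 8 h, and fell by 1.39. The constitutive HSPA8 fell by 0.82 and the stress-inducible HSPH1 fell by 0.45. Of the 24 genes of the list 9 rose and 6 fell, with a median of 0.00, against 8 and 12 with equal totals and 8 and 13 under quantile normalization.

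Promoters of heat shock genes that rose are shown with pairs of heat shock element units, GAANNTTC or TTCNNGAA, in capitals (GRCh38.p14, on the gene's strand). Where matches before the start lay far apart, only the one nearest the start is marked. In HSPA6 the lower-case ttcgc just before the capitals also forms TTCNNGAA with the GAA that follows, so matches overlap there.
HSPA6 (chr1:161524456-161524493, plus strand): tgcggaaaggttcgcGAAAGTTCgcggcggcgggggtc
HSPA1A (chr6:31815422-31815459, plus strand): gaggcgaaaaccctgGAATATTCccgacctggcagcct
HSPA1B (chr6:31827618-31827655, plus strand): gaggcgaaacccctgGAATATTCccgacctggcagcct
DNAJB1 (chr19:14518422-14518489, minus strand): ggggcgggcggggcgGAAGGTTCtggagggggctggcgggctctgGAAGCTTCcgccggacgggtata
Both motifs are their own reverse complements. One or the other was found in 14 of 22 list members with a window (63.6%) and in 13.7% of all windows. Of the 14, 6 rose and 3 fell. The stretch shown for HSPA1A also lies in the window of HSPA1L, which starts nearby on the opposite strand, was not in the list and had 385, 506 and 510 normalized counts at 48 h, against 7.16, 55.1 and 8.94 at 8 h.

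FOXO targets, autophagy genes and lysosome genes had more rises than falls. Of 21 FOXO targets 12 rose and 5 fell, with a median of 0.52, against 9 and 6 with equal totals. PIK3IP1, an inhibitor of PI3 kinase, had 532, 718 and 413 normalized counts at 48 h, against 34.7, 89.7 and 37.0 at 8 h (log2 fold change 3.44, SE 0.38). PDK4, a kinase that blocks entry of pyruvate into mitochondria, had 178, 298 and 230, against 15.7, 25.6 and 29.1, and the ubiquitin ligase gene FBXO32 rose by 3.29 and the insulin receptor gene INSR by 2.89. The groups did not overlap for PIK3IP1 or PDK4. Of 29 autophagy genes 21 rose and 4 fell (median 0.80), against 17 and 4 with equal totals. OPTN, a receptor that brings cargo to autophagosomes, had 2265, 2721 and 2510 at 48 h, against 450, 716 and 486 at 8 h, and ATG2B rose by 1.79, WIPI1 by 1.57 and GABARAPL1 by 1.44. ATG101, a subunit of the initiating kinase complex, had 351, 292 and 330 at 48 h, against 1478, 1542 and 1409 at 8 h, and fell by 2.19. ATG9A fell by 1.32, ATG5 by 1.00 and ATG7 by 0.84. Some rises were small, as for ATG10 (0.29), ATG3 (0.26) and BECN1 (0.25), whose changes were below 0 with equal totals. Lysosome genes rose in 19 and fell in 8 of 36, with a median of 0.34 that turned to -0.017 with equal totals, where 9 rose and 11 fell. NPC2, which binds cholesterol in the lysosome, rose by 1.93 and the proton pump gene ATP6V1H by 1.45, while NAGLU fell by 1.47.

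Core clock and output genes rose in 9 of 14 and fell in none, with a median of 1.01, against 6 rises and 1 fall with equal totals. PER1 had 2471, 2026 and 2241 normalized counts at 48 h, against 581, 403 and 578 at 8 h (log2 fold change 2.12, SE 0.16). The output factor DBP had 274, 294 and 254, against 64.8, 85.3 and 46.8, and the repressor BHLHE40 had 32380, 31194 and 32264, against 10855, 13014 and 10367. The 48 h libraries were above the 8 h ones for all 3 genes. NR1D1 rose by 1.26 and NR1D2 by 1.48, and CRY2 changed by 1.56 with a call that was lost with equal totals and without replicate 2 or 3 of 48 h or of 8 h, while PER2 had 180 to 259 at 48 h and 220 to 267 at 8 h and did not pass the test. The hour of harvest was not given in the labels.

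Sterol synthesis and uptake genes rose in 17 and fell in 3 of 25, with a median of 0.63, against 11 and 4 with equal totals. FDFT1, squalene synthase, had 4311, 3391 and 3321 normalized counts at 48 h, against 355, 303 and 463 at 8 h (log2 fold change 3.31, SE 0.17). MSMO1, a sterol oxidase, had 4705, 4078 and 4230, against 1362, 879 and 1097, and HMGCS1, at the head of the pathway, rose by 1.51. Other genes of the pathway fell, since LSS, which closes the sterol rings, had 400, 343 and 251 at 48 h, against 1921, 1572 and 1801 at 8 h, and PMVK fell by 1.68.

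Glycolysis and glucose uptake genes fell in 14 and rose in 7 of 26, with a median of -0.42, against 16 and 5 with equal totals. PKM, pyruvate kinase, had 9258, 7239 and 7584 normalized counts at 48 h, against 36027, 33475 and 34138 at 8 h (log2 fold change -2.11, SE 0.10). The glucose transporter SLC2A1 had 449, 649 and 438, against 2171, 1405 and 2051, and HK2 fell by 1.37, ENO1 by 0.94 and PGK1 by 0.87. PKM and SLC2A1 were lower in every library at 48 h. ARRDC4, which lowers glucose uptake, fell by 2.14. Other genes of the list rose, among them PDK4 by 3.28, ALDOA by 1.68 and ALDOC by 1.67.

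Nuclear genes of the respiratory chain and ATP synthase rose in 50 and fell in 7 of 76, with a median of 0.50, against 30 and 20 with equal totals and 43 and 13 under quantile normalization. UQCRB of complex III had 18069, 17807 and 20771 normalized counts at 48 h, against 5009, 5844 and 4764 at 8 h, and COX7B of complex IV had 2046, 1586 and 2379, against 534, 707 and 588. Their changes were 1.86 and 1.71, with no overlap of groups. NDUFC2 of complex I had 2179, 1930 and 2186 at 48 h, against 6759, 6873 and 6610 at 8 h, and fell by 1.69.

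The 13 mitochondrially encoded protein genes did not move together. They took 4.84 ± 0.470% of the library total at 48 h and 3.55 ± 0.412% at 8 h (SD, n = 3 each), a difference of 1.29 points with an exact permutation p of 0.1. Of the 13 genes 7 rose and 3 fell, with a median of 0.33 that turned to -0.03 with equal totals, -0.51 under quantile normalization and -0.09 with the length and GC trend removed. Those first 2 settings gave 4 rises with 6 falls and 2 rises with 7 falls. MT-CO1 had 719778, 911140 and 922658 normalized counts at 48 h, against 374584, 298062 and 383181 at 8 h, a rise of 1.27 that became 0.00 and was no longer called under quantile normalization. MT-CYB had 12051, 12525 and 15656, against 44349, 31136 and 45679, a fall of 1.58, and MT-ND1 fell by 1.05. MT-ND6, the protein gene on the light strand, had 121, 138 and 149 at 48 h, against 686, 1128 and 1178 at 8 h, a change of -2.83. The mitochondrial genome is transcribed from a few start sites into long precursors.

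Splicing regulators split evenly, with 12 rises and 12 falls among 32 SR and hnRNP genes and related noncoding RNAs. The median of -0.06 turned to 0.07 under median centring, and equal totals gave 5 rises with 18 falls and quantile normalization 6 with 19. HNRNPA2B1 had 4305, 4139 and 3613 normalized counts at 48 h, against 25960, 21992 and 25974 at 8 h (log2 fold change -2.62, SE 0.10), and TRA2B fell by 2.27. CLK1, a kinase of SR proteins, had 6683, 9002 and 7824, against 1458, 1765 and 1583, and rose by 2.28. MALAT1, an abundant nuclear noncoding RNA, had 33855, 33728 and 35652 at 48 h, against 4827, 4793 and 5410 at 8 h, a 6.87-fold higher mean. None of these genes had overlapping groups.

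The embryonic and fetal globins were partly higher at 48 h. HBG1 and HBG2, near-identical fetal genes, summed to 83456, 85166 and 89087 normalized counts at 48 h, against 38122, 22944 and 36164 at 8 h, a 2.65-fold higher mean. HBE1 had 4007, 3762 and 3825, against 2463, 1634 and 2129, and rose by 0.92. The α-globin pair HBA1 and HBA2 summed to 10434, 8897 and 10743 at 48 h, against 10317, 3736 and 8776 at 8 h, so those groups overlapped. Replicate 2 at 8 h was the lowest of the 6 libraries for each of these sums. Of 8 globin genes 3 rose and none fell, with equal totals as well, and the median of 0.42 turned to -0.042 without that library.

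Other erythroid groups were mixed. Red cell membrane genes rose in 7 and fell in 4 of 29, against 4 and 13 with equal totals and 7 and 7 under quantile normalization, with ANK1 down by 1.47, AQP1 at -1.46 and BCAM up by 1.73. Heme synthesis genes rose in 7 and fell in 4 of 16 (median 0.21, -0.15 with equal totals, where 5 rose and 5 fell). FECH, which inserts iron into heme, had 227, 314 and 176 normalized counts at 48 h, against 1063, 766 and 888 at 8 h, and fell by 1.94, whereas ALAD rose by 1.05 and BLVRB by 1.03. Iron handling genes rose in 6 and fell in 4 of 13 (median 0.18), against 3 and 4 with equal totals and 2 and 5 under quantile normalization, where the medians were -0.18 and -0.04. STEAP3, the ferrireductase of the transferrin cycle, had 235, 278 and 230 at 48 h, against 1549, 1315 and 1534 at 8 h. The exporter gene SLC40A1 fell by 1.55 and the transferrin receptor gene TFRC by 0.83, while the ferritin light chain gene FTL rose by 1.18 and SLC11A2 by 1.04.

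Of 23 erythroid and megakaryocytic transcription factors 11 fell and 7 rose, against 11 and 4 with equal totals, and their median of 0.04 turned to -0.31 with equal totals and -0.02 under quantile normalization. TAL1 had 719, 973 and 736 normalized counts at 48 h, against 2581, 2208 and 2873 at 8 h, and KLF1, the activator of adult β-globin, had 1312, 2138 and 1080, against 4336, 4178 and 4208. Their changes were -1.66 and -1.55, without overlap of groups. ZFPM1, the partner of GATA1, fell by 1.91 and ZBTB7A, a repressor of γ-globin, by 1.64. SOX6 had 600, 575 and 783 at 48 h, against 73.1, 357 and 94.0 at 8 h, and rose by 2.25. GATA1 itself had 8649, 9722 and 7328, against 7031, 7400 and 6808, and did not pass the test.

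Markers of other blood and tissue cells moved in both directions. Among 12 megakaryocyte genes 1 rose and 3 fell, against 1 and 4 with equal totals, and the median of -0.38 became 0.05 over genes with a mean of at least 50. ITGA2B had 1060, 1468 and 1308 normalized counts at 48 h, against 325, 440 and 424 at 8 h, while GP1BB had 2281, 3178 and 2321, against 6249, 9683 and 6211. Among 12 granulocyte and monocyte genes 5 rose and 1 fell, against 3 and 1 with equal totals and 8 and 0 under quantile normalization, and FCGR2A rose by 1.11 and CD33 by 0.95. PRTN3 had the largest fitted change of the list, with 30.7, 53.4 and 23.5 at 48 h, while it was listed at 7.47, 0 and 5.88 at 8 h. Among 10 mast cell and basophil genes 3 rose and 2 fell, against 1 and 2 with equal totals, and the receptor gene KIT had 1580, 1272 and 1240, against 510, 630 and 396. Of 5 lymphocyte genes none rose and 2 fell, with equal totals as well, and CD3G was at 27.5, 43.4 and 52.8 at 48 h, against 105, 132 and 115 at 8 h. Of 7 stromal and epithelial genes 3 rose and 2 fell, against 2 and 2 with equal totals, and VIM, the filament protein vimentin, had 142151, 117705 and 134984, against 62334, 49272 and 53673. Summed over the lists, granulocyte markers gave 13219 ± 595 at 48 h and 8469 ± 879 at 8 h, and lymphocyte markers 579 ± 47.7 at 48 h and 869 ± 172 at 8 h (SD, n = 3 each).

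Among the sirtuins, SIRT1 fell. It had 545, 870 and 755 normalized counts at 48 h, against 1120, 1055 and 1200 at 8 h, a log2 fold change of -0.66 (SE 0.17, limma adjusted p 0.00784). SIRT3, a mitochondrial sirtuin, had 812, 596 and 528, against 1030, 978 and 952, a change of -0.64 that was not called with the length and GC trend removed. Of 6 sirtuin genes tested 2 fell and none rose, against 4 and 0 with equal totals, and the median of -0.20 turned to 0.03 with the length and GC trend removed. SIRT2 was not analysed here.

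The largest changes by the naming rule need their values beside them, since many of these genes were listed at 0 in a library. NGFR, the low-affinity nerve growth factor receptor, had 286, 292 and 378 normalized counts at 48 h, against 5.33, 2.70 and 5.59 at 8 h, the largest rise among genes above 0 in all 6 libraries (log2 fold change 5.89, SE 0.38). LRRC70 had 217, 316 and 233, against 21.4, 8.70 and 2.22, and SAMD8, a sphingolipid enzyme gene, had 372, 506 and 814, against 27.8, 6.94 and 38.4. ACTB rose by 5.30, but its near-identical copy ACTG1 did not pass the test, and the pair summed to 80143, 68549 and 81423 at 48 h, against 38079, 34704 and 32700 at 8 h, 2.18-fold more on average. RSC1A1 had 1410, 2038 and 1710 at 48 h and was listed at 0, 4.25 and 0 at 8 h, and UBBP4, a ubiquitin pseudogene, had 213, 290 and 334 and was listed at 0, 1.61 and 0. Likewise listed at 0 in at least 1 library at 8 h were WDR46, HSD17B8, CAPN5, H3C4 and UBE3A, which had 83.4 to 439 at 48 h. In all, 7 of the 15 largest rises were listed at 0 in a library, and 6 of the 15 lay on chromosome 6. HSPA1A, HSPA1B, HSPA1L, WDR46 and HSD17B8 among these rises, RGL2 and PPP1R10 among the falls, and VARS1 lie in or beside the major histocompatibility complex, a region for which the human assembly holds alternative versions. Whether the authors' index held those versions was not stated, and its part in these values was not tested.

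Among the largest falls, RGL2 was listed at 0 in all 3 libraries at 48 h and had 443, 383 and 501 normalized counts at 8 h. MINAR1 was listed at 0 in all 3 as well, against 79.0, 125 and 108 at 8 h. KAT14, a histone acetyltransferase gene, had 2.74, 7.51 and 0 at 48 h, against 191, 181 and 292 at 8 h, and SMURF1, a ubiquitin ligase gene, had 224, 18.7 and 0, against 788, 1028 and 1297. PPP1R10, a phosphatase regulator gene, had 177, 0 and 151, against 636, 1753 and 1802, and its call was lost without replicate 2 or 3 of 8 h. AMH, the anti-Müllerian hormone gene, had 4.54, 10.5 and 0, against 122, 176 and 214, and ZNF48, BZW1P2, NBPF4, NUTM2D and ZNF45 were also at 0 in at least 1 library at 48 h. So 11 of the 15 largest falls were listed at 0 somewhere, beside 88 of all 11685 tested genes with a mean of at least 50. The remaining 4 were above 0 throughout, and of these LINC01311 had 20.3, 47.9 and 14.3 at 48 h, against 731, 586 and 740 at 8 h, and PAN3-AS1 had 2.13, 0.977 and 2.38, against 101, 127 and 123. NBPF6 and NBPF2P, of a family of near-identical copies, had 1.21 to 3.88 and 4.35 to 15.1 at 48 h, against 113 to 155 and 238 to 266 at 8 h.

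Noncoding gene types differed from protein-coding ones in the balance of calls. Among 655 antisense genes 9.31% rose and 46.0% fell, with a median log2 fold change of -1.12. Among 629 lincRNA genes 13.5% rose and 37.7% fell, with a median of -0.65, beside 33.1% and 30.7% of 12129 protein-coding genes, whose median was 0.03. Sense-intronic genes went the other way, as 40.2% of 92 rose and 17.4% fell. With equal totals the medians became -1.45 for antisense, -0.99 for lincRNA, -0.33 for protein-coding and 0.45 for sense-intronic genes. Antisense genes were also much lower in level, with a median of 32.6 normalized counts over the 6 libraries, against 955 for protein-coding genes, and the part of level in this difference was not tested. The lincRNA gene HK2-DT had 19.2, 7.81 and 4.77 at 48 h, against 270, 258 and 218 at 8 h.

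**Figure D5:**
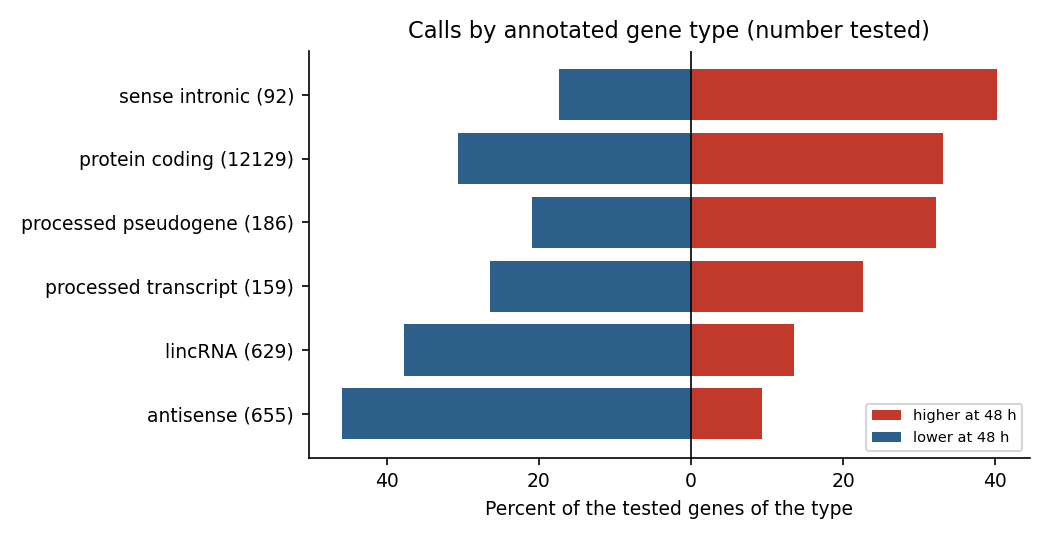
Percent of the tested genes of each annotated type that were called higher (right, red) or lower (left, blue) at 48 h than at 8 h. Antisense genes show 46.0% lower and 9.31% higher, sense-intronic genes 17.4% lower and 40.2% higher.

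Protein-coding genes also differed by level and GC content. In the fifth with the highest mean normalized count, 50.7% rose and 23.9% fell at 48 h, and in the fifth with the lowest mean 14.8% rose and 24.3% fell. In the fifth with the shortest transcripts, up to 2141 bases, 40.7% rose and 23.8% fell, while in the other 4 groups of about equal size, from shorter to longer, 30.5, 28.9, 32.3 and 32.8% rose and 33.6, 34.6, 32.1 and 29.4% fell, so the shares did not run in one direction with length. By GC content of the longest transcript, 40.7% rose and 21.9% fell in the fifth with the lowest GC, and 27.5% rose and 37.3% fell in the fifth with the highest. After the trend with length and GC was removed, the median of the ribosomal protein genes was 1.39.

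The untreated and 24 h libraries place several of these genes in the series, as a description with no test. Over untreated cells and then 8, 24 and 48 h of exposure, mean normalized counts of MYC were 18028 ± 409, 11463 ± 2716, 8874 ± 2353 and 1150 ± 186 (SD, n = 3 each). JUN gave 362 ± 44.6, 331 ± 108, 536 ± 92.1 and 3744 ± 131 over the same series, and MALAT1 gave 4868 ± 753, 5010 ± 347, 6845 ± 2047 and 34412 ± 1076. For these genes, the mean at 24 h was nearer to that at 8 h than to that at 48 h. SAT1 gave 1029 ± 82.3, 1836 ± 65.9, 4820 ± 1481 and 17803 ± 1043, and so was higher at each later time. PKM had its highest mean at 8 h, with 18755 ± 5727, 34547 ± 1324, 14385 ± 2161 and 8027 ± 1080 over the same series. The sum of HBG1 and HBG2 was 277287 ± 86177 in untreated cells, beside 32410 ± 8256 at 8 h and 85903 ± 2887 at 48 h, so the sum at 48 h was higher than at 8 h and lower than in every untreated library.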

How the data were processed

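Polyadenylated RNA of 6 libraries, 3 of K-562 cells at 48 h and 3 at 8 h in 5 µM Si-711, was compared. The authors trimmed reads with cutadapt, quantified them with Salmon on GRCh38 and normalized with DESeq2, per the submitters' processing notes, which give no versions. The authors' deposited signal values are gene counts divided by DESeq2 size factors. In each library, between 43.7 and 60.1% of the values near the bottom of the range came within 0.1 of a whole multiple of the best step. Whole reads could therefore not be regained, and no count model was run. Salmon divides reads among near-identical genes by estimation.

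Values were tested with limma 3.58.1 in R 4.3.3 as log2(value + 1), with a mean trend in the prior, two-sided, adjusted by Benjamini-Hochberg over 14424 genes, so fold changes are on that scale and understate those of low genes. The labels call the replicates biological and independent. Same-numbered libraries were correlated by 0.0195 to 0.102 in their deviations from the group means, beside -0.0703 to 0.0358 for unlike numbers. Such low values cannot show whether same-numbered libraries were handled together, which the labels do not say. The main fit did not pair them. The members and lists were chosen with earlier results of these data known. Of 57 lists, 38 are described. Named were the 15 largest rises and falls among called genes with a mean of at least 50, a symbol and groups that do not overlap, up to 4 members of each list with the largest called change, and SIRT1. Some genes that this rule names are not reported here. Other genes, the motifs and the genes whose sequences are printed were chosen after their values were seen. Alternatives were the added value, the filter, the scaling, the prior, the length and GC trend, all 12 libraries, a replicate block and each library left out. Start windows and microRNAs are RefSeq sequences (GRCh38.p14). Symbols came from a gene name table for 50026 genes and from GENCODE release 29 for 267.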

Additional observations from a re-analysis of the deposited data

How the results depend on the processing

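With equal totals 2756 genes rose and 1077 rose at least 2-fold, against 4433 and 1951 as deposited. Leaving out each library in turn gave 7838 to 8786 calls, 3957 to 4299 rises and 3881 to 4487 falls, with 1831 to 1951 rises and 2397 to 2752 falls of at least 2-fold. The genes picked by the naming rule, the largest changes above 0 in every library and the microRNA hosts included 263 that were called. Of these 263 genes, 238 kept call and direction under every alternative run and none reversed. Equal totals ended 12 of these calls, quantile normalization 6 and a threshold of 0.01 ended 16. Other genes given in the text are outside this count, among them BAG3, whose change was -0.11 with equal totals. A replicate block called 9099 genes, 4513 higher and 4586 lower, and the fit of all 12 libraries called 9320. The ribosomal share differed by 6.17 to 7.05 points with each library left out, and the mitochondrial share by 1.07 to 1.56 points.

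Medians of 18 of the 38 described lists changed sign under an alternative, and the cause was not tested. With equal totals they were -0.15 for heme biosynthesis, -0.18 for iron handling, -0.31 for erythroid and megakaryocytic transcription factors, -0.029 for mitochondrially encoded genes, -0.19 for cytosolic aminoacyl-tRNA synthetases, -0.017 for lysosome genes, -0.32 for CDK inhibitors and D cyclins, -0.35 for heat shock genes, -0.10 for mast cell genes and -0.26 for stromal genes. Quantile normalization gave -0.036 for iron handling, -0.023 for those transcription factors, -0.51 for mitochondrially encoded genes, -0.044 for the synthetases and -0.34 for heat shock genes. Removing the length and GC trend gave 0.031 for sirtuins, -0.094 for mitochondrially encoded genes, 0.094 for the BCL2 family, 0.17 for ATF4 and CHOP targets, 0.017 for mitosis and 0.033 for red cell membrane genes. Median centring gave 0.026 for ATF4 and CHOP targets, 0.067 for splicing regulators, 0.043 for mitosis and 0.048 for red cell membrane genes. A mean of at least 50 gave 0.049 for megakaryocyte genes and -0.059 for heat shock genes. Leaving out each library in turn gave -0.042 (without replicate 2 of 8 h) to 0.69 for globins and -0.089 to 0.10 for the transcription factors, and also turned the medians of mitosis, CDK inhibitor and heat shock genes, which lie near 0. Total RNA per cell was not measured.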
